A study of Mus musculus with 8 samples.

Results

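The genes described here are 47 ligands, receptors, effectors and antagonists of the Wnt pathway, taken by name from the pathway's known members and measured by RNA sequencing in mouse tail epidermis. All 47 had an identifier among the 46983 genes of the count table, and 46 were abundant enough to be tested, out of 15638 tested genes. The remaining member, Frzb, which encodes a secreted Frizzled-related Wnt inhibitor, had 0 counts in all 8 libraries, which allows up to 0.0193 CPM over the libraries together, counting error only.

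RNA came from mice of 8 weeks, 1 library per mouse and 4 mice in each group, and by its title the study concerns NIPP1 in epidermal homeostasis. NIPP1, the product of Ppp1r8, is a nuclear regulator of the protein phosphatase PP1. SKO mice were K14-Cre/+ Ppp1r8 fl/-, with 1 floxed and 1 null allele (alleles Ppp1r8tm1Ave and Ppp1r8tm1.1Itl), and CTR mice were K14-Cre/+ Ppp1r8 fl/+, with 1 floxed and 1 wild-type allele. Both groups carried the Cre transgene Tg(KRT14-cre)1Amc/J, whose keratin 14 promoter is active in basal keratinocytes, so CTR mice also carried Cre and a floxed allele. The sheet was separated from the dermis with dispase and was not described as sorted, and hair follicle genes were measured in it.

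Wnt ligands are lipid-modified by Porcupine, carried to the cell surface by Wntless and bound there by Frizzled receptors with the co-receptor LRP5 or LRP6. In the canonical branch this halts the destruction complex of Axin, APC and associated kinases, so that beta-catenin accumulates and acts in the nucleus with TCF/LEF factors. Among the genes switched on are feedback inhibitors such as Axin2, Nkd1, Notum and Znrf3, and secreted antagonists bind the ligands or the co-receptors from outside. In skin the pathway is known for hair follicle formation and growth, and LEF1 is active in the matrix and precortex cells that build the hair shaft.

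Of the 46 tested members, 13 fell and 3 rose in SKO epidermis, and 30 were not past the threshold. The largest falls among the members were those of Nkd2, Lef1 and Nkd1, by factors of 4.62, 3.997 and 3.09. The 3 rises were in antagonist genes, Kremen2, Sostdc1 and Dkk3. Axin2, a target of the canonical branch in many tissues, and the beta-catenin gene Ctnnb1 were not past the threshold. A call here is a Benjamini-Hochberg adjusted p under 0.05 over all tested genes in edgeR's two-sided quasi-likelihood test, and levels are CPM with library totals scaled by trimmed mean of M values (normalised CPM). Among all 15638 tested genes 12.2% were lower, 11.5% higher and 23.7% called in either direction by the same rule. The 4 members called at least 2-fold lower, which also include Wnt11, stand beside 4.02% of all tested genes. The median log2 fold change (SKO over CTR) of the tested members was -0.15, against -0.0026 over all tested genes. Of the 46 values 34 were negative, against 50.4% over all tested genes. The libraries of the groups did not overlap in 14 members, 12 with SKO below and 2 with SKO above, against 26.2% of all tested genes in either direction. In bulk libraries fewer cells of a type and less RNA per cell cannot be told apart, which applies to every level given here.

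**Figure D1:**
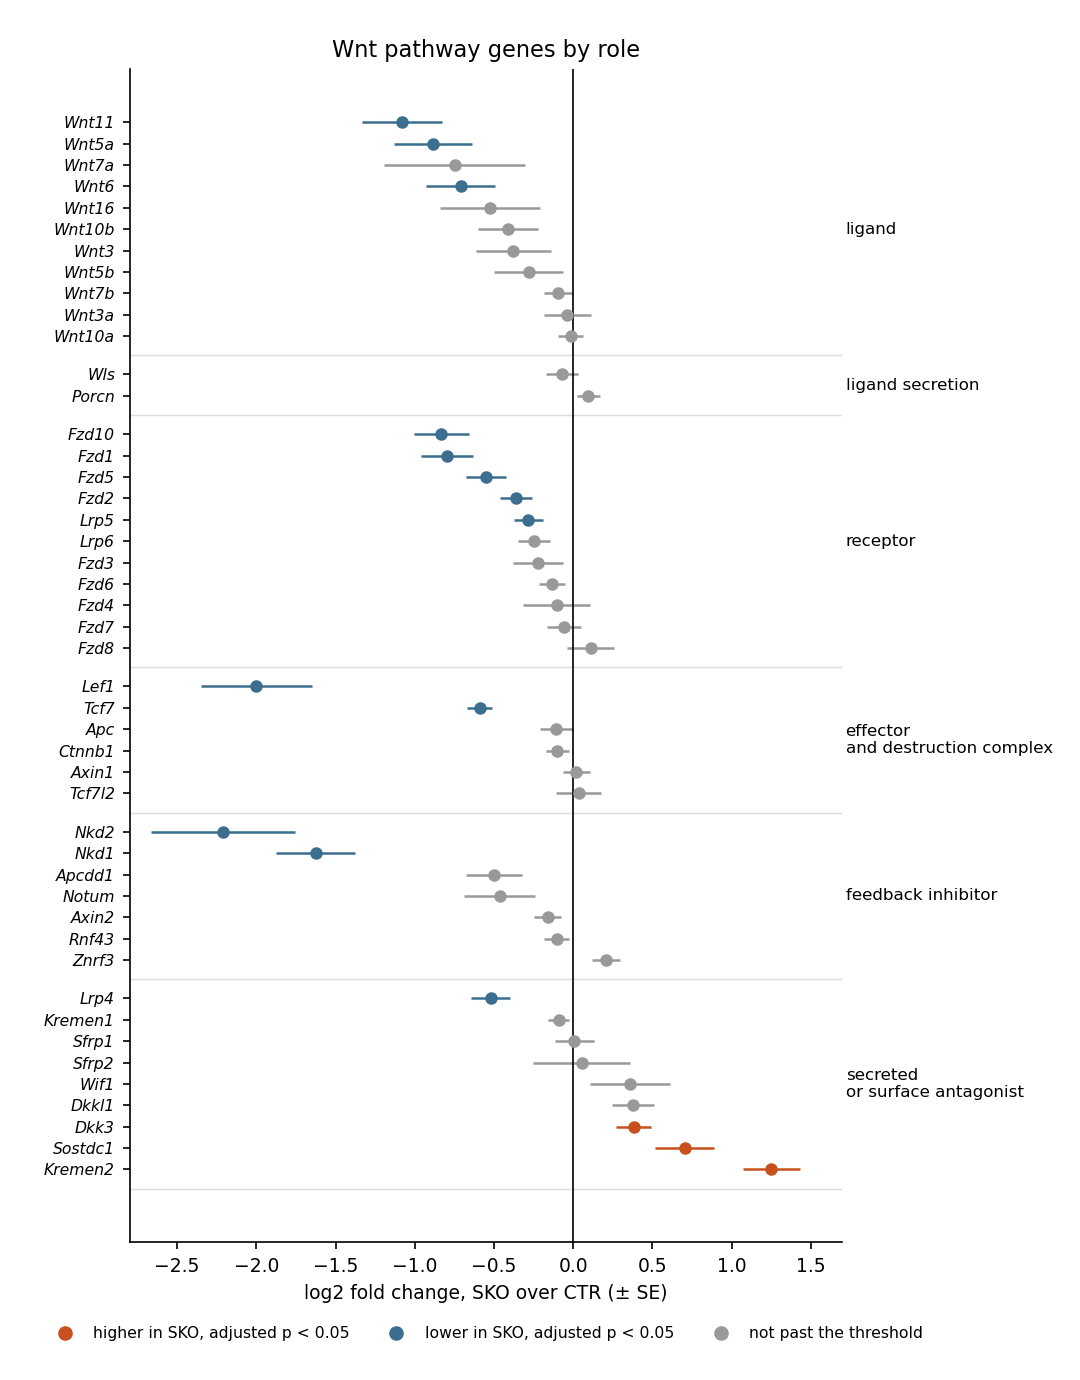
Log2 fold changes, SKO over CTR, of the 46 tested members by role, with bars of 1 standard error on each side (4 libraries per group). Colours separate the 3 members called higher, all of them antagonists, the 13 called lower and the 30 not past the threshold.

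Library totals were 18649079 to 20500885 counts in SKO and 16696212 to 21571935 counts in CTR. Ppp1r8 itself had 35.4, 28.4, 34.3 and 47.4 normalised CPM in SKO 1 to 4, against 40.4, 34.7, 41.6 and 35.0 in CTR 1 to 4 (edgeR adjusted p = 0.789). Which part of the gene the floxed allele loses is not given in the sources used here, and reads from the rest of it still count, so this value is no check of the labels. Krt33b, a keratin gene of the hair cortex used here as a gauge of hair content, had 9.38, 65.5, 124 and 13.7 normalised CPM in SKO 1 to 4, against 335, 646, 592 and 398 in CTR 1 to 4. Every SKO library was below every CTR library, and SKO 1 and SKO 4 held the least. Of 14 tested markers of hair shaft and matrix 12 fell, with summed levels of 260.4 to 1652 normalised CPM in SKO and 3514 to 6072 in CTR, and 7 of 9 inner root sheath and companion layer markers fell (385 to 3367 in SKO, 4955 to 9412 in CTR). Of 10 outer root sheath and bulge markers 1 rose and 2 fell. Their sums overlapped, at 4073 to 4841 in SKO and 4223 to 4835 normalised CPM in CTR, but the most abundant of them moved apart without overlap, Krt15 at 1605 to 2022 in SKO, against 2602 to 2766 in CTR, and Krt79 at 1998 to 2587 in SKO, against 1167 to 1633 in CTR. Of 6 basal keratinocyte markers 3 fell, the integrin genes Itgb4 and Itga6 and the hemidesmosome collagen gene Col17a1 (log2 fold changes -0.89, -0.36 and -0.45), while the sums, mostly Krt5 and Krt14, overlapped at 14683 to 15601 normalised CPM in SKO and 15004 to 16934 in CTR. Of 8 suprabasal keratinocyte markers 4 rose and 1 fell, with sums of 47967 to 65352 normalised CPM in SKO and 23589 to 26673 in CTR. Xist, the RNA of the inactive X chromosome, also separated the groups, at 330.4, 436, 574 and 337 normalised CPM in SKO 1 to 4 and 706, 994, 819 and 647 in CTR 1 to 4, and its SKO libraries stood in the order of Krt33b. The part of hair content and of Xist level in the results on Wnt genes was not tested beyond the fits with these genes as a further term given below, and the sex and litter of the mice are not given in the labels.

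The 4 windows of reference sequence shown next lie just before a start that RefSeq lists for Wnt11, the one called member of those with a listed window that held a TCF/LEF motif, and of Nkd2, Lef1 and Nkd1, the 3 members with the largest falls, a choice made after their values were seen. The motifs searched were CTTTGAT and CTTTGAA on both strands, in the 250 bases before each start listed by RefSeq (GRCm38.p6). Capitals mark the match, which reads CTTTGAT on the opposite strand and lies 51 bases before the start. The windows are chr7:98834862-98835111 (plus strand) for Wnt11, chr13:73847632-73847881 (minus strand) for Nkd2, chr3:131110047-131110296 (plus strand, the most upstream of 4 listed windows) for Lef1 and chr8:88527383-88527632 (plus strand) for Nkd1, each written 5′ to 3′ in the direction of transcription. The start that RefSeq lists for Nkd1 lies inside the longer span given for this gene by GENCODE, so its window is not before the GENCODE start. For Wnt11 a further window downstream, chr7:98838595-98838844 and not shown, held no match.
Wnt11: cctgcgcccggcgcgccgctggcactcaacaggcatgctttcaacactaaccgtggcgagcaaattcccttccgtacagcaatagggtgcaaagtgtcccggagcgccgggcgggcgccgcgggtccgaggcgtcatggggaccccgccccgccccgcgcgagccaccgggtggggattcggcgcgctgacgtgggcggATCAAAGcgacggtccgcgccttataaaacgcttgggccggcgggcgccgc
Nkd2: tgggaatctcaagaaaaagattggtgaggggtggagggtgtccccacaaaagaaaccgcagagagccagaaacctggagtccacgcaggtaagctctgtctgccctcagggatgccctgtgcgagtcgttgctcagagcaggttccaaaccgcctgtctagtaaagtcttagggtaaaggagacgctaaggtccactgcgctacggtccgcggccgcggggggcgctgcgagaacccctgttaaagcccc
Lef1: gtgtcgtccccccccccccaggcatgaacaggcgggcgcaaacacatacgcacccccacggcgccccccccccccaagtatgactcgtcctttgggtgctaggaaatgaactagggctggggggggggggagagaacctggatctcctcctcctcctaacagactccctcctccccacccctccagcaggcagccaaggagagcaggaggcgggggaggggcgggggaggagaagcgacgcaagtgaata
Nkd1: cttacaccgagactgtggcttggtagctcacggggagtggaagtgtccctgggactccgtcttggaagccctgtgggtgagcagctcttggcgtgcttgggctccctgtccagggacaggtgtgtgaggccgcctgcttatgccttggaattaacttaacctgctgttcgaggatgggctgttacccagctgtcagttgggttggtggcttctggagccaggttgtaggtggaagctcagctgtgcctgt
A match was present in 7.48% of the 32851 windows of all genes and in 2 of the 37 windows found for 27 members, the other being a window of Wnt5b. The windows of Nkd2, Lef1 and Nkd1 held none, which says only that these letters are not in these stretches. G and C made up 70.8% of the Wnt11 window, 66.4% of the Lef1 window and 58.4% of each of the Nkd1 and Nkd2 windows, against a median of 52.4% over all windows.

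All 11 ligand genes had a negative log2 fold change, as did 50.4% of all tested genes, with a median of -0.41. The values of Wnt10a, Wnt3a and Wnt7b were only -0.02, -0.04 and -0.09. Past the threshold 3 of the 11 fell, beside 12.2% of all tested genes. Per kilobase of exon, the highest ligand levels among the members were those of Wnt10a, whose human counterpart is mutated in forms of ectodermal dysplasia (17.3 in SKO and 17.5 normalised CPM per kb in CTR), and of Wnt3, a ligand of the canonical branch (13.0 in SKO and 16.9 in CTR). Wnt7b followed at 7.63 in SKO and 8.13 normalised CPM per kb in CTR, and the other 8 ligand genes were at or under 3.78 in both groups.

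Wnt11 (chr7:98835112-98855195), a ligand best known for signalling without beta-catenin, had 6.71, 8.95, 9.37 and 4.39 normalised CPM in SKO 1 to 4, against 10.3, 16.9, 20.2 and 15.0 in CTR 1 to 4. The groups did not overlap, as held in the direction of lower SKO for 13.3% of all tested genes, and the log2 fold change was -1.08 (SE 0.25, edgeR adjusted p = 0.0134). Wnt5a (chr14:28504750-28527448), a ligand of the ROR receptors, had 11.1, 13.5, 19.7 and 8.84 normalised CPM in SKO and 17.1, 30.7, 27.8 and 22.6 in CTR. SKO 3 was above CTR 1, so these groups overlapped, and the log2 fold change was -0.88 (SE 0.25, edgeR adjusted p = 0.0274). The Wnt5a call ended without SKO 1, SKO 2, SKO 4, CTR 2 or CTR 3, with adjusted p of 0.00198 to 0.0722 over 16 alternatives.

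Wnt6 (chr1:74771892-74785322), the neighbour of Wnt10a, was scarce, at 1.89, 3.44, 2.85 and 1.80 normalised CPM in SKO and 4.25, 4.23, 3.96 and 3.91 in CTR. Each SKO library was below each CTR library, and the log2 fold change was -0.71 (SE 0.22, edgeR adjusted p = 0.0395). Leaving out any CTR library, SKO 1 or SKO 4 ended the Wnt6 call (adjusted p of 0.0187 to 0.0938 over the alternatives). Wnt10a (chr1:74791516-74804179) had 40.8, 45.1, 42.6 and 41.8 normalised CPM in SKO and 42.3, 39.1, 47.7 and 43.3 in CTR. Its groups overlapped, and the log2 fold change of -0.02 had a 95% interval of -0.19 to 0.16.

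Wnt3 had 21.7, 39.8, 49.1 and 49.1 normalised CPM in SKO and 48.6, 40.2, 65.0 and 53.9 in CTR, with SKO 1 far below the other libraries (log2 fold change -0.38, edgeR adjusted p = 0.269). The remaining uncalled ligand genes, Wnt3a, Wnt5b, Wnt7a, Wnt7b, Wnt10b and Wnt16, had log2 fold changes of -0.75 to -0.04, the lowest of them in Wnt7a with only 30 counts in SKO and 51 in CTR over 4 libraries each. For ligand secretion, Wls, the carrier gene, averaged 158 ± 9.23 normalised CPM in SKO and 166 ± 23.0 in CTR (SD, n = 4 each), giving -0.07 as log2 fold change with a 95% interval of -0.29 to 0.15. Porcn, the acyltransferase gene, averaged 22.4 ± 0.627 in SKO and 20.9 ± 0.834 normalised CPM in CTR, a log2 fold change of 0.09 with an interval of -0.07 to 0.26.

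Of the 11 receptor and co-receptor genes 5 fell, beside 12.2% of all tested genes. In each of these 5 every SKO library was below every CTR library, as held for 13.3% of all tested genes. Fzd10 (chr5:128600844-128604093), a Frizzled receptor gene, had 34.8, 41.5, 64.2 and 54.9 normalised CPM in SKO 1 to 4, against 75.4, 84.0, 97.9 and 90.5 in CTR 1 to 4 (log2 fold change -0.83, SE 0.17, edgeR adjusted p = 0.00802). Fzd1 (chr5:4753839-4758035), a Frizzled gene of another branch of the family, had 58.3, 95.6, 104 and 73.1 normalised CPM in SKO and 129, 149, 163 and 134 in CTR (log2 fold change -0.80, SE 0.16, edgeR adjusted p = 0.00795). In both genes SKO 3 was the highest SKO library and CTR 1 the lowest CTR library.

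Fzd5 (chr1:64730558-64737751) had 28.8, 35.4, 34.1 and 25.3 normalised CPM in SKO and 43.8, 53.9, 43.1 and 40.0 in CTR (log2 fold change -0.55, SE 0.13, edgeR adjusted p = 0.013). Fzd2 (chr11:102604396-102608058) had 13.5, 14.5, 11.7 and 13.2 normalised CPM in SKO and 15.9, 18.1, 18.1 and 15.8 in CTR (log2 fold change -0.36, SE 0.10, edgeR adjusted p = 0.0282). The co-receptor gene Lrp5 (chr19:3584828-3686564) had 112, 127, 128 and 98.5 normalised CPM in SKO and 133, 145, 143 and 147 in CTR (log2 fold change -0.28, SE 0.09, edgeR adjusted p = 0.0459). The Fzd2 call ended without SKO 4, CTR 2 or CTR 3 (adjusted p of 0.0133 to 0.0766 over the alternatives). The Lrp5 call ended in 9 of 16 alternatives (adjusted p of 0.0198 to 0.105), among them scaling by library totals, upper-quartile scaling, no count filter and the removal of SKO 1, SKO 4 or any CTR library.

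Lrp6, the other co-receptor gene, averaged 107 ± 14.1 normalised CPM in SKO and 127 ± 10.4 in CTR (SD, n = 4 each, log2 fold change -0.25, edgeR adjusted p = 0.101), and its difference from Lrp5 was not tested. With mice of neighbouring ID numbers as a block, Lrp6 passed the threshold (log2 fold change -0.25, edgeR adjusted p = 0.0489). The Frizzled genes with the highest level per length were Fzd6, Fzd7, Fzd1 and Fzd10. Fzd6, whose loss disturbs hair orientation in mice, stood at 28.4 in SKO and 31.2 normalised CPM per kb in CTR, and Fzd7 at 22.3 in SKO and 23.2 in CTR. Fzd1 stood at 19.7 in SKO and 34.2 normalised CPM per kb in CTR, so that it was below both in the SKO means and above both in the CTR means. Neither Fzd6 (log2 fold change -0.13, 95% interval -0.32 to 0.05) nor Fzd7 (-0.06, interval -0.30 to 0.19) was past the threshold. Fzd3, Fzd4 and Fzd8, all at or under 1.45 normalised CPM per kb, had log2 fold changes of -0.22, -0.10 and 0.11.

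**Figure D2:**
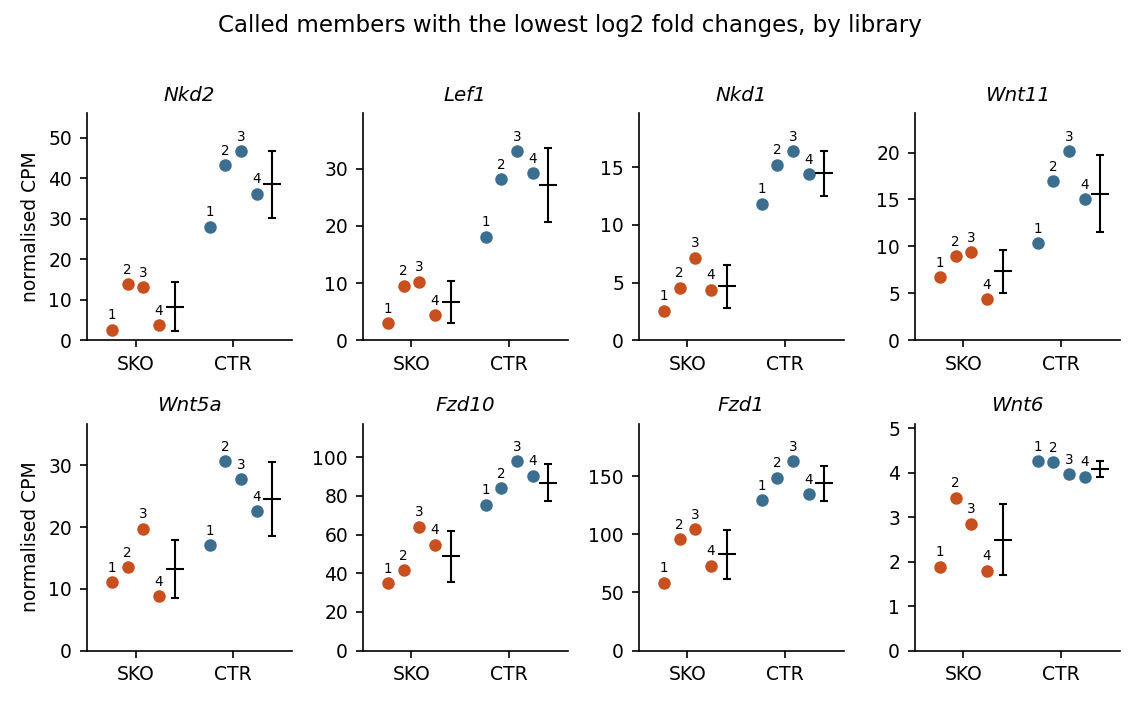
Normalised CPM in each SKO and CTR library (numbered points) of the 8 called members with the lowest log2 fold changes, with the mean and SD beside them (4 libraries per group). In Nkd2, Lef1, Nkd1, Wnt11, Fzd10, Fzd1 and Wnt6 all SKO points lie below all CTR points, and in Wnt5a SKO 3 (19.7) lies above CTR 1 (17.1).

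Among the 6 effector and destruction complex genes, the TCF/LEF factor genes Lef1 and Tcf7 fell and Ctnnb1, Apc, Axin1 and Tcf7l2 were not past the threshold. The share called lower over all tested genes was 12.2%. Lef1 (chr3:131110471-131224356) had 2.94, 9.56, 10.2 and 4.34 normalised CPM in SKO 1 to 4, against 18.1, 28.1, 33.1 and 29.2 in CTR 1 to 4 (log2 fold change -1.999, SE 0.35, edgeR adjusted p = 0.00395). The highest SKO library was below the lowest CTR library, and SKO 1 and SKO 4 were the lowest of all, as for Krt33b. Tcf7 (chr11:52252371-52283014), which encodes the factor TCF1, had 28.6, 30.4, 27.0 and 25.6 normalised CPM in SKO and 44.3, 41.2, 42.2 and 40.2 in CTR (log2 fold change -0.59, SE 0.08, edgeR adjusted p = 0.00111). Its SKO libraries were close together, and the order within them, SKO 4, 3, 1 and 2 from low to high, was not that of Krt33b.

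Ctnnb1 (chr9:120929216-120960507) had 932, 947, 964 and 844 normalised CPM in SKO and 955, 1026, 982 and 991 in CTR. It was the member with the highest level per length, at 178 in SKO and 190.3 normalised CPM per kb in CTR, and its log2 fold change of -0.10 had a 95% interval of -0.26 to 0.06 (edgeR adjusted p = 0.345). The scaffold genes Apc and Axin1 had log2 fold changes of -0.10 and 0.02, and Tcf7l2, which encodes TCF4, of 0.04 (interval -0.28 to 0.35).

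Of the 7 feedback inhibitor genes, Nkd2 and Nkd1 fell, both of which encode naked cuticle proteins that bind Dishevelled. The share called lower over all tested genes was 12.2%. Nkd2 (chr13:73818534-73847631) had 2.57, 13.9, 13.1 and 3.65 normalised CPM in SKO 1 to 4, against 28.0, 43.3, 46.8 and 36.2 in CTR 1 to 4 (log2 fold change -2.21, SE 0.45, edgeR adjusted p = 0.00771). SKO 1 and SKO 4 were again lowest, several-fold below SKO 2 and SKO 3. Nkd1 (chr8:88521354-88594884) had 2.57, 4.55, 7.16 and 4.39 normalised CPM in SKO and 11.8, 15.2, 16.4 and 14.4 in CTR (log2 fold change -1.63, SE 0.25, edgeR adjusted p = 0.00223). The groups did not overlap in either gene.

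Axin2 (chr11:108920349-108950783) had 27.9, 28.9, 29.3 and 25.4 normalised CPM in SKO and 32.8, 27.8, 33.5 and 30.6 in CTR. The groups overlapped through CTR 2, and the log2 fold change of -0.16 (SE 0.09, edgeR adjusted p = 0.199) had a 95% interval of -0.35 to 0.03, an interval that does not reach the size of the Nkd1 or Nkd2 difference. The difference between Axin2 and these genes was not itself tested. Apcdd1, a membrane inhibitor mutated in a human form of hereditary hair loss, had 33.9, 54.9, 56.3 and 36.9 normalised CPM in SKO and 52.6, 70.8, 73.1 and 60.6 in CTR. With a log2 fold change of -0.50 it missed the threshold (edgeR adjusted p = 0.0655) and passed it in 3 of 16 alternatives, which were DESeq2, no count filter and the removal of SKO 3. With mice of neighbouring ID numbers as a block it was past the threshold as well (log2 fold change -0.52, edgeR adjusted p = 0.00382), and with Krt33b or Xist as a further term its value was 0.37 or 0.23, without a call. The ubiquitin ligase genes Znrf3 and Rnf43, which remove Frizzled receptors, had log2 fold changes of 0.21 and -0.10, and the ligand deacylase gene Notum, scarce at 1.11 to 2.12 in SKO and 1.92 to 2.50 normalised CPM in CTR, of -0.46 (adjusted p = 0.159).

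Of the 9 tested secreted or surface antagonists, 3 rose and 1 fell, and the median log2 fold change was 0.36. By the same rule 11.5% of all tested genes were higher and 12.2% lower. Among the other 37 tested members none was higher by edgeR or DESeq2, 12 were lower by edgeR, and 1 was higher at an unadjusted p under 0.05 (Znrf3). Of 3 tested antagonists among the further pathway genes described below, none rose and 2 fell, with a median log2 fold change of -0.30. Kremen2 (chr17:23741197-23745833), a receptor of Dickkopf proteins that acts with them on LRP6, had 16.3, 13.2, 9.67 and 13.4 normalised CPM in SKO 1 to 4, against 4.25, 6.16, 6.19 and 5.46 in CTR 1 to 4. The lowest SKO library lay above the highest CTR library, as held for 12.8% of all tested genes, and Kremen2 was 2.38-fold higher (log2 fold change 1.25, SE 0.18, edgeR adjusted p = 0.00161). It shares 200 exonic bases with 9530082P21Rik on the opposite strand, a gene with 1984 counts in SKO and 1109 in CTR, against 1017 and 427 counts for Kremen2 over the SKO and the CTR libraries. Whether the counting used the strand is not given in the sources used here, so reads in those bases cannot be told apart. Of the Dickkopf genes outside the members, Dkk1 and Dkk4 had 0 counts in all 8 libraries. Dkk2 had 33 counts in SKO and 21 in CTR and was too scarce to be tested.

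Sostdc1 (chr12:36314139-36318452), a secreted inhibitor of both BMP and Wnt signalling also called ectodin, had 155, 126, 99.0 and 76.6 normalised CPM in SKO and 67.2, 76.9, 74.3 and 61.7 in CTR. SKO 4 was just below CTR 2, so the groups overlapped, and Sostdc1 was 1.63-fold higher (log2 fold change 0.70, SE 0.18, edgeR adjusted p = 0.0212). Dkk3 (chr7:112116017-112159057), a divergent member of the Dickkopf family, had 69.2, 82.5, 68.1 and 63.9 normalised CPM in SKO and 60.4, 55.5, 44.4 and 57.0 in CTR, with no overlap (log2 fold change 0.38, SE 0.11, edgeR adjusted p = 0.0308). The Sostdc1 call ended without CTR 1 or CTR 4 (adjusted p of 0.00106 to 0.0563 over the alternatives) and the Dkk3 call without SKO 2, CTR 2 or CTR 3 (0.0085 to 0.0862).

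The antagonist gene that fell was Lrp4 (chr2:91457511-91513779), whose product binds sclerostin and Sostdc1. It had 96.2, 116, 147 and 133 normalised CPM in SKO and 171, 173, 199 and 162 in CTR, without overlap (log2 fold change -0.52, SE 0.12, edgeR adjusted p = 0.0147). Per length, Sostdc1 was the most abundant antagonist gene, at 64.0 in SKO and 39.3 normalised CPM per kb in CTR, followed by Dkkl1 at 50.4 in SKO and 38.8 in CTR. Dkkl1 (log2 fold change 0.38, edgeR adjusted p = 0.0647) passed the threshold with DESeq2 and without SKO 3. Sfrp1, Sfrp2, Wif1 and Kremen1, further inhibitors of ligands or co-receptors, had log2 fold changes of 0.01, 0.05, 0.36 and -0.09, none past the threshold.

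**Figure D3:**
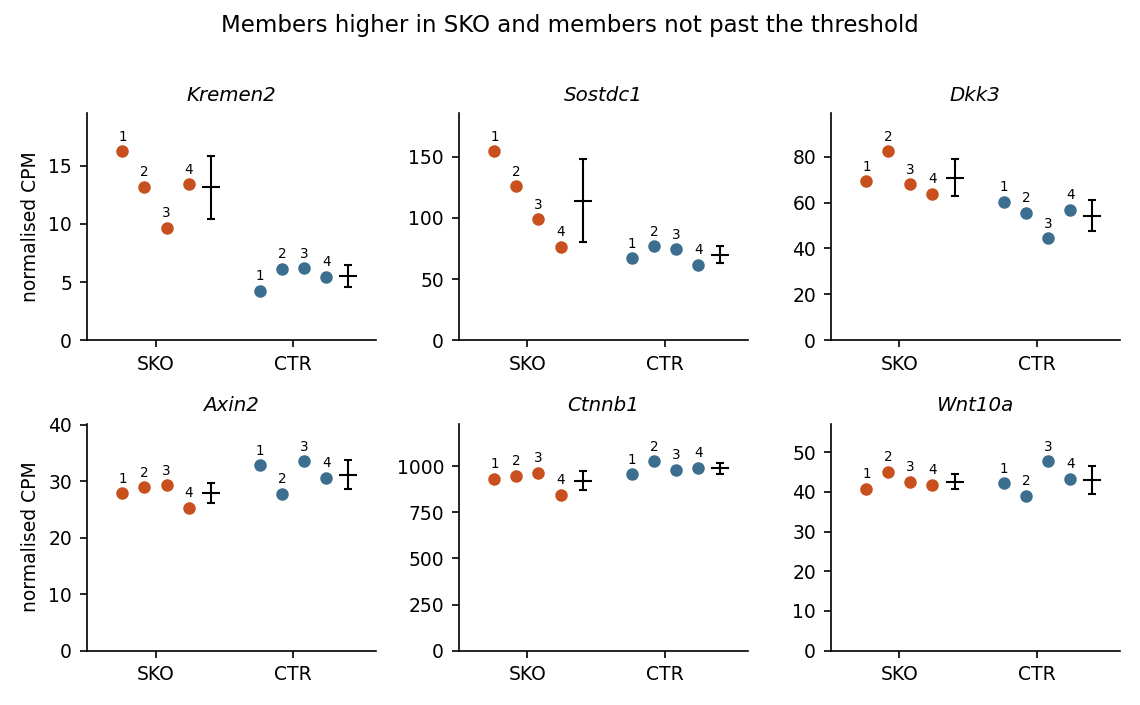
Normalised CPM in each SKO and CTR library (numbered points) of the 3 members called higher and of Axin2, Ctnnb1 and Wnt10a, which were not past the threshold, with the mean and SD beside them (4 libraries per group). The groups are apart in Kremen2 and Dkk3 and overlap in the other panels, in Sostdc1 only between SKO 4 (76.6) and CTR 2 (76.9).

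The order of the libraries was then compared with that of Krt33b, which from low to high was SKO 1, 4, 2 and 3 and CTR 1, 4, 3 and 2. The 4 SKO libraries had exactly this order in 6 of 46 members, Lef1, Nkd1, Fzd1, Lrp6, Apc and Apcdd1, against 8.85% of all tested genes. The first 3 are among the 13 members called lower, and 21.1% of all genes called lower had this order. Among CTR libraries the order of Krt33b recurred in 4 members, Wnt5a, Wnt10b, Wls and Sfrp1, against 5.43% of all tested genes. Of the 13 members called lower 1 (Wnt5a) had it, against 11.9% of all genes called lower.

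A looser measure, chosen after seeing the order of Krt33b, asked whether SKO 1 and SKO 4 were both below SKO 2 and SKO 3. This held in 9 of the 13 members called lower, against 41.6% of all genes called lower, and in 19 of all 46 tested members, against 21.5% of all tested genes. Among the members called lower, Fzd10, Tcf7, Fzd2 and Lrp4 did not have it. Among the 3 members called higher none had it, and for Kremen2 the SKO order ran 3, 2, 4 and 1 from low to high, the exact reverse of the Krt33b order. The uncalled members Dkkl1 and Sfrp2 had this reverse order too. So did Lgr6, which fell, and the uncalled Pygo2 among the further pathway genes described below. How often it held over all tested genes was not counted. With 4 libraries a group these orders are given as a description, and no correlation over all 8 libraries is given because the groups form separate clusters in Krt33b.

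**Figure D4:**
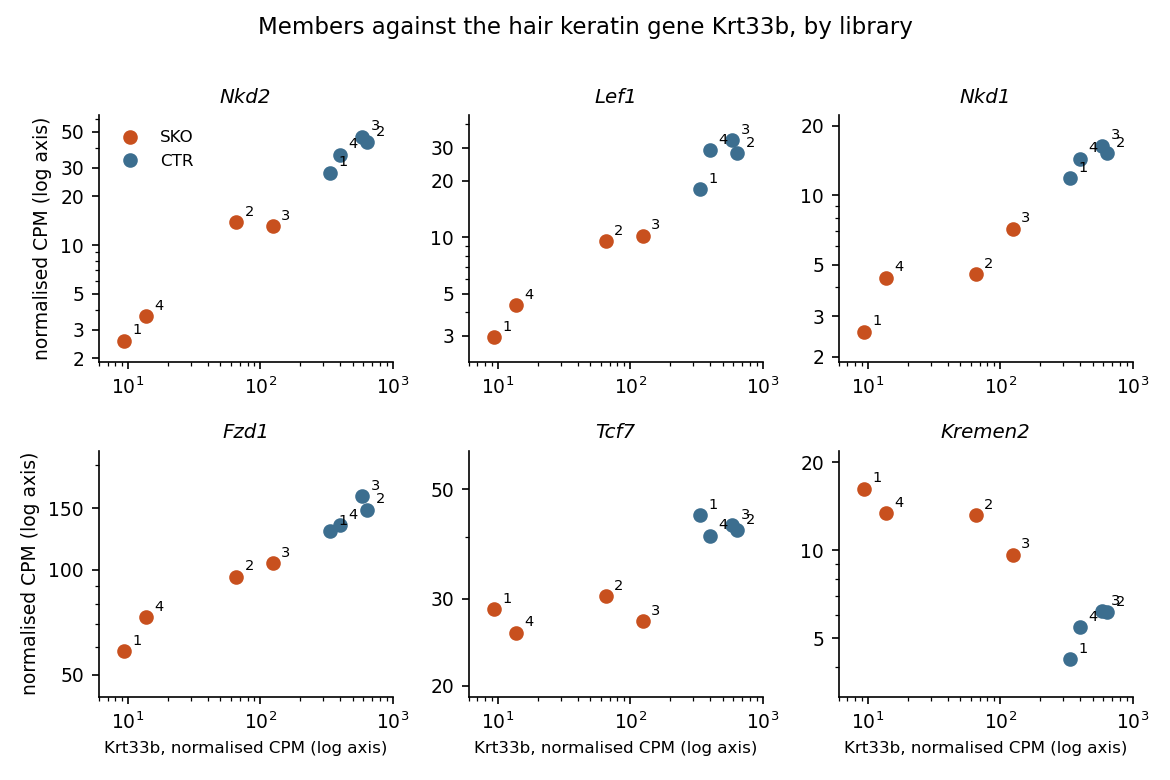
Normalised CPM of 6 members against that of Krt33b in each SKO and CTR library, both axes logarithmic. Krt33b spans 9.38 to 124 in SKO and 335 to 646 in CTR with no shared range; Lef1, Nkd1 and Fzd1 follow the Krt33b order within SKO, whereas Tcf7 stays between 25.6 and 30.4 there.

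With the log2 CPM of Krt33b as a further term in the fit, none of the 46 members was past the threshold in edgeR, 7 had an unadjusted p under 0.05, and DESeq2 was not run with this term. Over all genes 39 were higher and 20 lower in that fit, with 2375 at an unadjusted p under 0.05, so that the loss of calls was not confined to the members. The median log2 fold change of the 13 members called lower was -0.13 with the term and -0.80 without it, and 8 of the 13 kept a negative value. Nkd2 had a log2 fold change of 0.12 (SE 0.30) with the term, Lef1 of -0.27 (SE 0.31) and Nkd1 of -0.54 (SE 0.31). The value of Tcf7 moved little, to -0.56 (SE 0.16, edgeR adjusted p = 0.159), and that of Kremen2 was 0.78 (SE 0.32, edgeR adjusted p = 0.277). Because the Krt33b ranges of the groups do not meet, these values rest on carrying the slope within groups across the gap between them, and genotype and hair content cannot be told apart by this design.

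**Figure D5:**
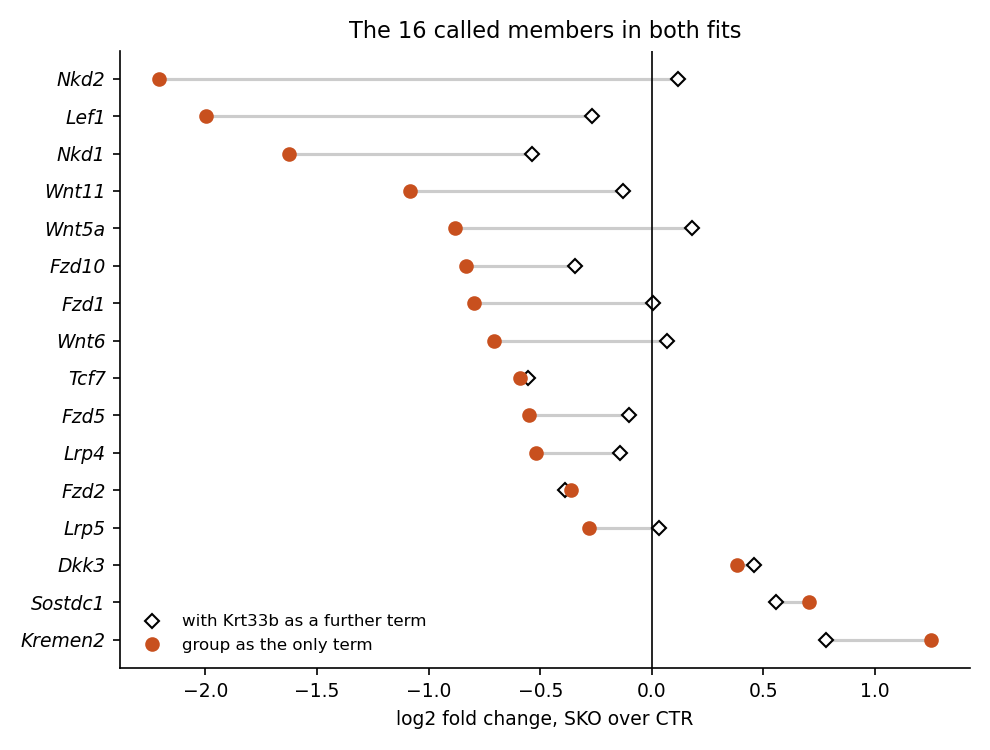
Log2 fold changes, SKO over CTR, of the 16 called members with group as the only term (filled circles) and with the log2 CPM of Krt33b as a further term (open diamonds), lines joining the same gene. Nkd2 moves to 0.12 and Lef1 to -0.27, while Tcf7 stays at -0.56; with the term none of the 16 is past the threshold.

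Xist as the further term gave a similar count, 0 of 46 members past the threshold in edgeR and 8 at an unadjusted p under 0.05. There the median of the 13 members was -0.27 and 12 kept a negative value, and Tcf7 had a log2 fold change of -0.58 (edgeR adjusted p = 0.094). Of the dermal papilla markers, cells that signal to the hair matrix and express Wnt5a, 3 of 5 tested fell, Hhip, Vcan and Bmp4. Sums over the 11 listed genes were 81.0 to 129 normalised CPM in SKO and 141 to 165 in CTR. Most of this was Prdm1, at 70.7 to 109 in SKO and 90.4 to 101 in CTR. Prdm1 (log2 fold change -0.16) and Alpl (0.21) were not past the threshold. The defining papilla marker Corin was at 0 to 0.150 in SKO and 0 to 0.124 normalised CPM in CTR, near the level that 3 counts give (0.139 to 0.180 CPM per library). Fibroblast markers summed to 387 to 538 normalised CPM in SKO and 268 to 383 in CTR. Most of this was Postn, at 329 to 435 in SKO and 211 to 331 in CTR. Of 6 tested, 2 were higher, Postn and Fbln1, and none lower. Col1a1, at 1.11 to 2.99 in SKO and 1.36 to 4.52 in CTR, was not past the threshold (log2 fold change -0.23). Neither were Col1a2 (-0.31), Col3a1 (-0.51) and Dcn (0.15). The part of these cells in the results was not tested.

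Of 76 further pathway genes, listed by role, 57 were tested, of which 18 fell and 5 rose. Over all tested genes 12.2% were lower and 11.5% higher. The median log2 fold change of the 57 was -0.21, against -0.0026 over all tested genes. Without SKO 4 the number that fell was 11. Among receptors, Ror1 and Ror2, which encode the ROR receptors of WNT5A, fell by 0.99 and 0.88 on the log2 scale (edgeR adjusted p of 0.00439 and 0.0129). Ror1 had 7.13, 10.3, 12.9 and 8.26 normalised CPM in SKO 1 to 4 and 21.3, 20.98, 18.7 and 15.8 in CTR 1 to 4, and Ror2 averaged 11.3 ± 3.34 in SKO and 20.9 ± 3.55 in CTR (SD, n = 4 each). Of the R-spondin receptor genes Lgr6 fell (log2 fold change -0.46, edgeR adjusted p = 0.0354, up to 0.0937 without single libraries other than SKO 1 and CTR 4, and 0.0527 with mice of neighbouring IDs as a block), and Lgr4 and Lgr5, both at -0.15, were not past the threshold. The Lgr6 call also ended with scaling by library totals. Wnt4, at 38.2 in SKO and 46.3 normalised CPM per kb in CTR, was above all 11 ligand members per length and had a log2 fold change of -0.28 (edgeR adjusted p = 0.103).

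Planar polarity genes, which orient cells and hairs within the sheet, held changes in both directions. Prickle1 fell to 10.5 ± 2.88 normalised CPM in SKO, against 22.5 ± 3.61 in CTR (log2 fold change -1.10, edgeR adjusted p = 0.00326), whereas Prickle2 rose to 94.4 ± 11.1 in SKO, against 62.3 ± 3.66 in CTR (log2 fold change 0.60, edgeR adjusted p = 0.0022). The adhesion receptor genes Celsr1 and Celsr2 fell by 0.43 and 0.33 on the log2 scale, calls that ended when any library other than SKO 3 was left out (adjusted p up to 0.104 and 0.124). The Celsr2 call also ended with upper-quartile scaling. Vangl1, outside the rule for named genes and added after its value was seen, rose by 0.33. Among cytoplasmic transducers Ccdc88c (log2 fold change -0.79), Dvl3 (-0.53) and Amer1 (-0.47) fell and the ubiquitin ligase subunit gene Fbxw11 (0.26) rose, and the nuclear cofactor gene Bcl9 fell by 0.34. The Dvl3 call ended without SKO 1, SKO 2, SKO 4, CTR 1 or CTR 2, that of Amer1 without SKO 1, SKO 4, CTR 1, CTR 2 or CTR 3, and that of Bcl9 without SKO 2, SKO 4 or CTR 2 (adjusted p up to 0.0665, 0.0947 and 0.0626).

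Of 10 tested genes listed here as targets of the pathway, 5 fell and 2 rose. Over all tested genes 12.2% were lower and 11.5% higher. Msx2, a homeobox gene of the hair matrix, had 7.55, 22.7, 28.1 and 15.5 normalised CPM in SKO 1 to 4, against 48.3, 73.3, 78.1 and 67.8 in CTR 1 to 4 (log2 fold change -1.86, edgeR adjusted p = 0.00387). Bambi, which encodes a pseudoreceptor of the BMP family, averaged 23.0 ± 8.87 in SKO and 66.8 ± 5.996 normalised CPM in CTR (log2 fold change -1.54, edgeR adjusted p = 0.00312). Hoxc13 and Foxn1, transcription factor genes of the hair shaft, fell by 1.28 and 1.19 on the log2 scale. These 2 genes and Msx2 were also on the hair marker list given above. Of the 5 listed targets that fell, only Bambi and Ccnd1 were not on it. The others past the threshold, named after their values were seen, were Ccnd1 (cyclin D1), which fell by 0.41, and Myc and Cd44, which rose by 0.29 and 0.47. Among further antagonists, Cxxc4, with 32 counts in SKO and 134 in CTR over 4 libraries each, had a log2 fold change of -2.05 (edgeR adjusted p = 0.0096). Shisa2 fell by 0.27, a call that ended when any library other than SKO 3 or CTR 3 was left out (adjusted p up to 0.114). The Shisa2 call also ended with upper-quartile scaling, with scaling by library totals and with no count filter.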

How the data were processed

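Poly-A RNA from 8 tail epidermis samples was sequenced as 75 bp single reads with a stranded kit, per the labels' protocols. The authors deposited whole-number read counts per Ensembl gene in 1 table. The submitters' processing notes name cutadapt 1.7.1, STAR 2.4.1d, Bowtie2 2.2.4, Cufflinks 2.1.1, featureCounts 1.4.6 and edgeR 3.8.6 with build GRCm38. How each was set, the strand setting of the counting included, is not given in the sources used here. Of 46983 identifiers 46488 were named through GENCODE M21, which also gave coordinates and exon lengths. Members that share exonic bases with a gene on the opposite strand are Lef1, Wnt5a, Wnt7b, Wnt11, Fzd5, Fzd6, Ctnnb1, Axin2, Notum, Sfrp2 and Kremen2; apart from Kremen2 the partner had at most 282 counts in either group.

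From these counts, edgeR 4.0.16 (R 4.3.3) was run with TMM scaling, its default low-count filter and the quasi-likelihood test of SKO over CTR on 4 and 4 libraries, adjusted over all 15638 genes. Standard errors were taken as the log2 fold change over the square root of F. Alternatives were DESeq2 1.42.0, other scalings and filters, a robust fit, Krt33b or Xist as a further term, and leaving out each library. After seeing the data, a block was added for mice with neighbouring ID numbers, 1 SKO and 1 CTR in each of 4 pairs; what such mice share is not given in the labels. The deviations of paired libraries from their group means had correlations of 0.166 to 0.415 across genes, above 0.1 in every pair, although SKO 3 correlated more with CTR 2 (0.213) than with its own neighbour CTR 3 (0.166). Each library is from a separate mouse, and no 2 libraries of a group agreed within counting noise. On simulated data for this comparison, run on 15638 genes, 2, 20, 35 and 44 of 50 genes changed 1.25-, 1.5-, 2- and 4-fold were called, with 9 false among 110 calls. The members, marker lists and further pathway genes were chosen with earlier results of these data known. Called members are given with all values, and the uncalled with a log2 fold change or a range of them. Levels are given for some uncalled members, not always the most abundant of their role. The rule for the further list named up to 4 called genes of each role at 1 CPM or more.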

Additional observations from a re-analysis of the deposited data

Results flagged for a closer look

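Of 134 groups of 4 libraries checked over 67 genes, 1 was picked out because a library lay far from the others relative to the range of its group; chance alone would mark about 1 group in 20. Ccdc88c had 25.5 normalised CPM in CTR 4, against 34.2 to 34.9 in the other CTR libraries.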

How the results depend on the processing

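Of the 16 called members, 10 kept the call in all 16 alternatives without a further term, and 6 (Wnt5a, Wnt6, Fzd2, Lrp5, Sostdc1 and Dkk3) lost it in at least 1 without a change of direction. Leaving out single libraries gave 2 to 4 members higher and 9 to 15 lower, and 4 to 6 further pathway genes higher and 11 to 20 lower. DESeq2 called 4 members higher and 14 lower. With Krt33b as a further term the counts of members higher, members lower, further genes higher and further genes lower were 0, 0, 0 and 0, and with Xist as the term they were 0 as well; the cause was not tested. Single-gene alternatives were followed for the members and for the further genes named by the rule, not for Ccnd1, Myc, Cd44 and Vangl1. Among the called genes so followed, the sign turned with the Krt33b term in Wnt5a (0.18), Wnt6 (0.07), Fzd1 (0.0065), Lrp5 (0.0313), Nkd2 (0.12), Celsr1 (0.14), Ccdc88c (0.0097), Amer1 (0.12) and Cxxc4 (0.0404). With the Xist term it turned in Wnt5a (0.16), Celsr1 (0.13) and Amer1 (0.0878), and all these are log2 fold changes without a call. Of the 30 uncalled members the sign turned in 17 with the Krt33b term and in 14 with the Xist term, among them with Krt33b Apcdd1 (0.37), Fzd3 (0.41), Wnt3 (0.16) and Lrp6 (0.15). Across scalings the median over all genes stayed between -0.0027 and 0.02. The labels give no shared replicate number or litter, but the mouse ID numbers fall into 4 neighbouring pairs of 1 SKO and 1 CTR mouse. A replicate block by these pairs was an alternative chosen after seeing the data. It gave 3 members higher and 15 lower (Lrp6 and Apcdd1 in addition) and 7 further genes higher and 18 lower. Among the called members and the further genes named by the rule, the block ended only the call of Lgr6. With 4 mice a group, changes under 1.5-fold were mostly missed in simulation, so an uncalled member is not shown to be unchanged.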
